A study of Mus musculus with 6 samples.

Results

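Otx2, Fgf5, Foxd3, Pim2, Tcf15, Zfp281 and Zscan10 are 7 genes associated with the formative state of pluripotency. They were chosen by name, with earlier results of these data known. Each was found as 1 Ensembl identifier among the 55416 of the deposited count table. All 7 passed the filter on low counts that left 15746 genes for testing. RNA-seq had been performed on mouse EpiLCs, epiblast-like cells obtained from mESCs, in 3 biological replicates of WT and 3 of Oct6 KO cells. WT EpiLCs came from parental 46C mESCs, in which GFP reports the neural gene Sox1. The KO cells were a single clone of that line, made with CRISPR/Cas9, with a homozygous insertion of 1 base in the coding sequence of Oct6 (official symbol Pou3f1), so that the effect of the insertion and any other property of the clone cannot be told apart. Cells of both genotypes came from N2B27 medium with 2i and LIF and had then spent 48 h on fibronectin in N2B27 with KSR (a serum replacement), bFGF and Activin A. Total RNA was made into stranded libraries after removal of ribosomal RNA.

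The formative state lies between naïve pluripotency, as in the preimplantation epiblast, and the primed state from which germ layers form. Cells that enter it shut down naïve transcription factors and switch on another set. OTX2 is known to move the core factor OCT4 to new enhancers at this step, while FGF5 is the classical secreted marker of the postimplantation epiblast. FOXD3, ZFP281 and TCF15 are transcription factors implicated in the exit from the naïve state, ZSCAN10 is a zinc finger factor of pluripotent cells, and PIM2 is a serine/threonine kinase that favours survival. OCT6 belongs to the POU family, whose members bind the octamer ATGCAAAT.

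The promoters of Pim2, Fgf5 and Otx2 are shown because their windows were the only ones of these genes to hold one of 3 motifs searched on both strands: the octamer ATGCAAAT, its first part ATGCAA, and the OTX core TAATCC. Each sequence runs from 250 bases before to 50 bases after a RefSeq transcript start, on build GRCm38.p6, 5′ to 3′ on the strand of the gene, and capitals mark the matches.
Pim2, chrX:7878056-7878355, plus strand: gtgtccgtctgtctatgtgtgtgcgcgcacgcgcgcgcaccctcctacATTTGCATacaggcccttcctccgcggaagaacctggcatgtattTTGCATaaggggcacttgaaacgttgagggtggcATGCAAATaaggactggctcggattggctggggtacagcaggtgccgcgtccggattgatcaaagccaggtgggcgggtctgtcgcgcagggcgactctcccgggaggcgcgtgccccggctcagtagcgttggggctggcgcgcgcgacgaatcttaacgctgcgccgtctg
Fgf5, chr5:98253934-98254233, plus strand: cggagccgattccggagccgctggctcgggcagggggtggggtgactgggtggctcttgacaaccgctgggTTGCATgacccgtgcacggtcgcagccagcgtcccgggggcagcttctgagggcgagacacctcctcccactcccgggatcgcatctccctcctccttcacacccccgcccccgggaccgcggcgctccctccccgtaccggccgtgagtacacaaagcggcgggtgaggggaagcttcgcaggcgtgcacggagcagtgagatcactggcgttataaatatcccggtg
Otx2, chr14:48665060-48665359, minus strand: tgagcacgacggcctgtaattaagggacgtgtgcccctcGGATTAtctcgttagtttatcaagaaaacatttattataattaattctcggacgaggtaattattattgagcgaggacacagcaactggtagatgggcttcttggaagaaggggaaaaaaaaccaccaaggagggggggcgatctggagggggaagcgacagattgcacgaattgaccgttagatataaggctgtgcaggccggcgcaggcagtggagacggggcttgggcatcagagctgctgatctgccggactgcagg
The Pim2 window held 2 octamers in opposite orientations, which begin 202 and 123 bases before the start, and a further ATGCAA on the opposite strand 157 bases before it. Among 32851 windows of the same length, 1.74% held the octamer and 35, or 0.107%, held at least 2. The Fgf5 window held ATGCAA on the opposite strand, 179 bases before the start, without the last letters of the octamer. ATGCAA, which lies inside the octamer, was found in 10.7% of all windows. The Otx2 window, 1 of 4 listed for that gene, held TAATCC on the opposite strand 211 bases before its start, as did 7.06% of windows. No match was found in the windows of Foxd3, Zfp281 and Zscan10 or in the other Otx2 windows. Of the 7 genes, 6 were listed. Tcf15 was not. The Pim2 window had a GC content of 62.7% with 31 CpG and that of Fgf5 68.3% with 29, against medians of 52.7% and 7 over all windows. A match describes these letters and does not show that a factor was bound there.

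Library totals lay between 10995505 and 14680930 counts, with TMM factors from 0.974 to 1.02 and a biological coefficient of variation of 11.7%. The targeted gene had 161, 143 and 122 CPM (counts scaled to a common TMM-normalized library size) in WT replicates 1 to 3 and 127, 141 and 128 in KO. Its log2 fold change was -0.10 ± 0.11 (SE, n = 3 per group, edgeR adjusted p = 0.57), so that the counts of Oct6 did not separate the genotypes. The 5 general pluripotency markers were all expressed, with a summed level of 1532 to 1674 CPM in WT and 1424 to 1524 in KO. Only Sox2 among them was called, and it was higher in KO, unlike the sum. The 13 naïve markers summed to 315 to 339 CPM in WT and 439 to 551 in KO, with 7 of them higher in KO and none lower at an adjusted p below 0.1, where 11.8% of all genes tested were higher and 12.5% lower. Of these 7 calls, that of Fbxo15 was lost without WT replicate 1 or KO replicate 3 and that of Tcl1 without KO replicate 2. That of Prdm14 was absent when at least 10 counts were required in every library. Klf2 (log2 fold change 1.71), Esrrb (1.39), Nanog (0.75) and Zfp42 (0.54) were called under all 15 alternatives. With a block for the replicate number, Pou5f1 and Lin28a of the first list and Klf5 of the second were also called, each lower in KO (adjusted p = 0.066, 0.077 and 0.095).

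Otx2 and Foxd3 are also used in anterior neural tissue and neural crest, Tcf15 in somites, and Otx2 in endoderm. Of 8 anterior neural markers, 7 stayed under 1 CPM in every library, with Six3 and Emx2 at 0 counts. Their sum was 4.53 to 5.22 CPM in WT and 1.54 to 2.78 in KO, where Sox1 was lower (log2 fold change -1.78 ± 0.44, SE). Sox1 had 55, 39 and 49 counts in WT and 5, 29 and 7 in KO, and without KO replicate 2 its log2 fold change was -2.94. Neural crest markers, 5 of 6 of them under 1 CPM, summed to 9.63 to 10.8 CPM in WT and 6.40 to 11.7 in KO. The 4 somite markers stayed under 1 CPM each in every library, with sums of 0.274 to 0.746 CPM in WT and 1.00 to 1.05 in KO. Primitive streak and definitive endoderm markers were at 5 of 7 under 1 CPM, with sums of 6.76 to 8.03 CPM in WT and 9.87 to 15.3 in KO. Eomes, an early streak factor, accounted for the call in that list (log2 fold change 0.87 ± 0.20, SE, edgeR adjusted p = 0.0034). Primitive endoderm markers, 2 of 5 under 1 CPM, summed to 4.65 to 7.31 CPM in WT and 5.48 to 15.04 in KO, with Gata6 (log2 fold change 1.35) and Pdgfra (0.94) higher. The first of these calls was lost without KO replicate 3 and the second under 8 of 15 alternatives. The trophectoderm markers other than Krt8 summed to at most 0.896 CPM in any library, while the keratin Krt8, which is not restricted to that lineage, was lower in KO (-1.04 ± 0.12, SE). The part of the naïve, streak and primitive endoderm signals in the values below was not tested. In bulk RNA, fewer cells that express a gene and less RNA per cell cannot be told apart.

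KO EpiLCs had more Otx2, Fgf5, Foxd3 and Tcf15 RNA than WT EpiLCs and less Pim2, while Zfp281 and Zscan10 were not called. For Tcf15 the groups overlapped and the call depended on single libraries. Of the 7 genes, 5 passed an adjusted p below 0.1 in edgeR's quasi-likelihood test, against 24.3% of all genes tested. The 4 that were higher compare with a background of 11.8% and the 1 that was lower with 12.5%. For 3 genes every KO library stood above every WT library, which held for 16.6% of all genes, and for 1 every KO library stood below, as for 17.1%. None reached an absolute log2 fold change of 1 together with the adjusted p, a combination met by 6.21% of genes. The median log2 fold change was 0.58 over the 7 genes and 0.00136 over all genes tested. Because the 7 were chosen with earlier results of these data known, these shares and medians are a description and not a test.

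**Figure D1:**
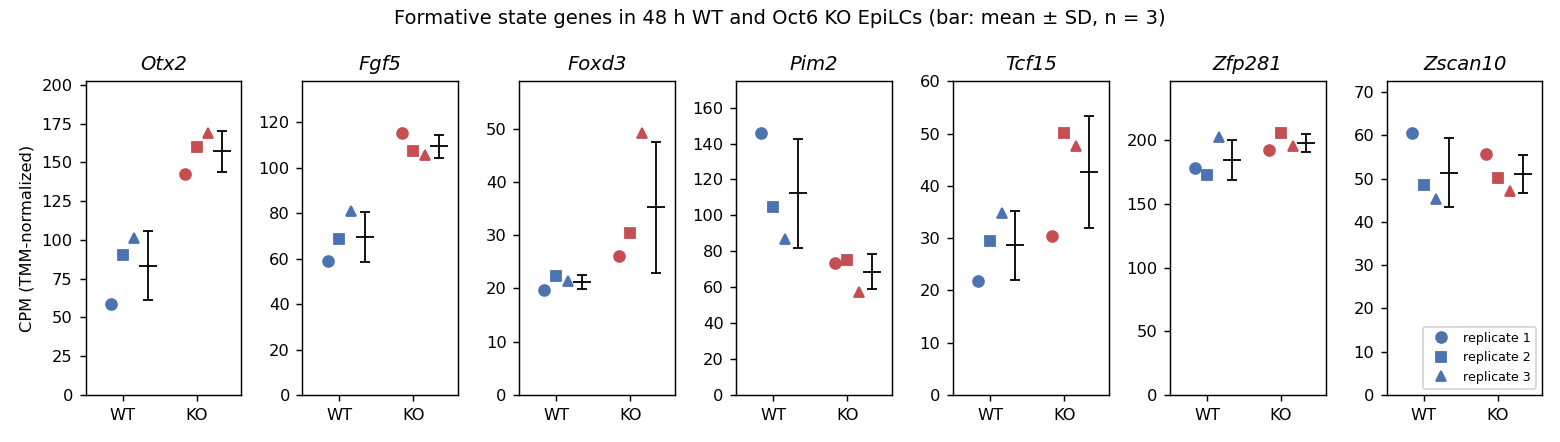
CPM of each gene (vertical axis, from 0, own scale per panel) in the 3 WT (blue) and 3 KO (red) libraries, with marker shape giving the replicate number and the bar the mean ± SD. Otx2, Fgf5 and Foxd3 have all KO points above all WT points, Pim2 has all below, and Tcf15, Zfp281 and Zscan10 overlap.

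Otx2 encodes a homeodomain factor (ENSMUSG00000021848.17, GRCm39 chr14:48894099-48911276, minus strand). Its counts were 784, 988 and 1499 in WT replicates 1 to 3 and 1762, 2075 and 2244 in KO. In CPM these were 58.5, 90.2 and 101 in WT and 143, 160 and 169 in KO. The lowest KO library thus stood above the highest WT library, and the WT libraries were spread more widely than the KO ones, with a coefficient of variation of 26.7% against 8.43%. Means were 83.4 ± 22.2 CPM in WT and 157 ± 13.2 in KO (SD, n = 3 each), a ratio of 1.89. The log2 fold change was 0.92 ± 0.15 (SE), with a 95% interval of 0.61 to 1.22 and an edgeR adjusted p of 0.00017. It was the largest in size of the 7. Between libraries with the same replicate number, KO exceeded WT by 1.28, 0.83 and 0.73 on the log2 CPM scale, so the difference was widest in the pair with the low WT library. Without WT replicate 1 the log2 fold change was 0.71.

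Foxd3 encodes a forkhead factor (ENSMUSG00000067261.5, chr4:99544536-99546859, plus strand). It was measured at 19.8, 22.4 and 21.4 CPM in WT and at 26.0, 30.5 and 49.1 CPM in KO, from 245 to 316 and 321 to 653 counts. The WT libraries were close to each other, the groups did not overlap, and KO replicate 3 stood well above the other two. Means were 21.2 ± 1.30 CPM and 35.2 ± 12.3 CPM (SD), and the log2 fold change was 0.74 ± 0.18 (SE, edgeR adjusted p = 0.0062, n = 3 per group). Without KO replicate 3 it fell to 0.42 with an adjusted p of 0.068, still under the threshold of 0.1. The coefficient of variation was 6.15% in WT and 34.8% in KO, the reverse of the order for Otx2.

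Tcf15 encodes a basic helix-loop-helix factor that pairs with E proteins (ENSMUSG00000068079.6, chr2:151985474-151991034, plus strand). Its values were 21.7, 29.4 and 34.8 CPM in WT and 30.4, 50.1 and 47.6 CPM in KO. KO replicate 1 lay within the WT range and the other KO libraries above it. Means were 28.6 ± 6.56 and 42.7 ± 10.7 CPM (SD), with a log2 fold change of 0.58 ± 0.17 (SE, edgeR adjusted p = 0.025, n = 3 per group). This call depended on single libraries: it was lost without WT replicate 1 (0.41, adjusted p = 0.12), without KO replicate 2 (0.45, adjusted p = 0.12) and without KO replicate 3 (0.49, adjusted p = 0.12). Within replicate numbers KO was higher by 0.48, 0.77 and 0.45 on the log2 CPM scale, in 3 of 3 pairs.

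Zfp281 encodes a zinc finger factor (ENSMUSG00000041483.15, chr1:136552639-136560840, plus strand). It was at 179, 172 and 202 CPM in WT and 192, 206 and 195 CPM in KO, the highest CPM of the 7 genes in both groups. The groups overlapped, and the log2 fold change of 0.10 ± 0.10 (SE) had an edgeR adjusted p of 0.54 and a 95% interval of -0.10 to 0.30. Zscan10 encodes a SCAN domain zinc finger factor (ENSMUSG00000023902.19, chr17:23819780-23829993, plus strand). It was at 60.5, 48.5 and 45.2 CPM in WT and 55.7, 50.1 and 47.2 CPM in KO. The log2 fold change was -0.01 ± 0.12 (SE, edgeR adjusted p = 0.97, n = 3 per group), and its 95% interval ran from -0.27 to 0.24. For both genes the interval leaves out changes of the size seen for Otx2, Foxd3 or Fgf5, but it does not show that the levels were equal.

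Fgf5 is the only ligand among the 7 genes (ENSMUSG00000029337.3, chr5:98401780-98452320, plus strand). Its counts were 790, 753 and 1197 in WT and 1422, 1395 and 1404 in KO, or 59.0, 68.7 and 81.0 CPM against 115, 108 and 106 CPM. The KO libraries lay close together, with a coefficient of variation of 4.63% against 15.9% in WT, and all of them exceeded the highest WT library. Means were 69.5 ± 11.03 and 109 ± 5.07 CPM (SD), a ratio of 1.57. The log2 fold change was 0.65 ± 0.11 (SE), with a 95% interval of 0.42 to 0.89 and an edgeR adjusted p of 0.00038. Leaving out any 1 library moved it between 0.54 and 0.78.

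Pim2 was the only one of the 7 to be called lower in KO (ENSMUSG00000031155.18, chrX:7744501-7749689, plus strand). Its counts were 1952, 1145 and 1280 in WT and 907, 975 and 763 in KO. WT replicate 1 was the highest at 146 CPM, followed by 104 and 86.6 CPM in the other WT libraries, and KO had 73.5, 75.2 and 57.4 CPM. The groups did not overlap. Means were 112 ± 30.3 and 68.7 ± 9.83 CPM (SD, n = 3 each), and the log2 fold change was -0.71 ± 0.15 (SE, 95% interval -1.02 to -0.39, edgeR adjusted p = 0.0023). Without WT replicate 1 it was -0.48 and was still called.

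Within a group, the genes differed in which library was extreme. WT replicate 1 was the lowest WT library for Otx2, Fgf5, Foxd3 and Tcf15 and the highest for Pim2 and Zscan10. WT replicate 3 was the highest for Otx2, Fgf5, Tcf15 and Zfp281 and the lowest for Pim2 and Zscan10. In KO, replicate 1 was the lowest for Otx2, Foxd3, Tcf15 and Zfp281, but the highest for Fgf5 and Zscan10. KO replicate 3 had the most Otx2 and Foxd3 and the least Fgf5, Pim2 and Zscan10. Otx2 and Fgf5, which both rose, therefore ordered the WT libraries alike and the KO libraries in opposite ways. Their KO coefficients of variation, 8.43% and 4.63%, were under the biological one of 11.7%, so the KO order is within the spread between replicates.

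**Figure D2:**
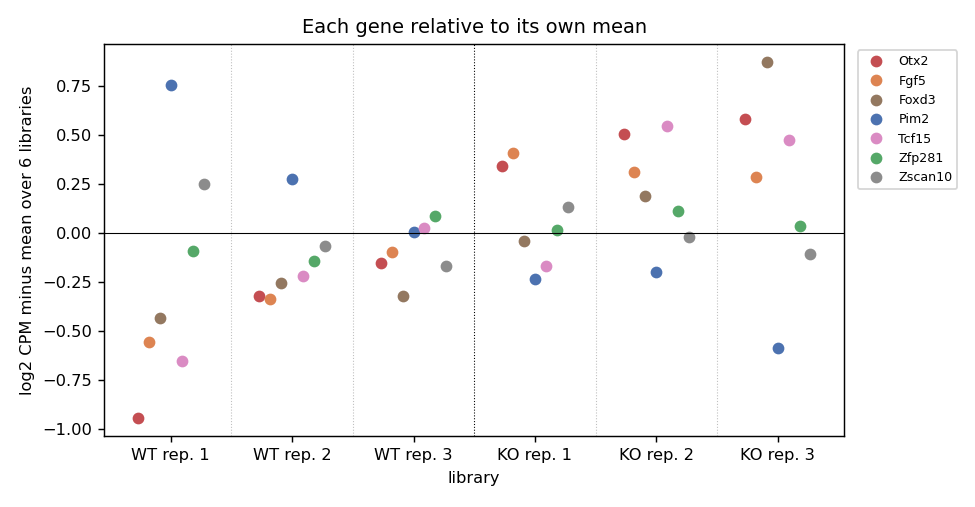
Log2 CPM of each gene minus its own mean over the 6 libraries (vertical axis), by library (horizontal axis), 1 colour per gene. In WT replicate 1, Otx2, Tcf15, Fgf5 and Foxd3 lie lowest and Pim2 highest, and in KO replicate 3, Foxd3 lies highest and Pim2 lowest.

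Levels of different genes were compared as CPM per kilobase of merged exons. In WT, Pim2 led with 39.9 ± 10.8 CPM per kb (SD, n = 3), and all its libraries stood above those of the next gene. Zfp281 (23.1 ± 1.97), Tcf15 (20.9 ± 4.79), Zscan10 (17.7 ± 2.76), Fgf5 (15.98 ± 2.53) and Otx2 (15.4 ± 4.11) followed, and neighbours in this order overlapped. Foxd3 was last with 9.11 ± 0.56 CPM per kb, below every Otx2 library. In KO the order began with Tcf15 (31.2 ± 7.83), Otx2 (29.1 ± 2.45), Fgf5 (25.1 ± 1.16), Zfp281 (24.8 ± 0.86) and Pim2 (24.4 ± 3.49), with overlap between neighbours. Pim2 stood above Zscan10 (17.6 ± 1.499), which overlapped Foxd3 (15.1 ± 5.27). Otx2 thus ranked higher in KO than in WT, and Pim2 lower. The order depends on the length used: per kilobase of the longest transcript, Otx2 (42.6 ± 3.59) and Fgf5 (39.6 ± 1.83) led in KO, and Fgf5 was second in WT at 25.2 ± 3.99.

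Other genes of the formative programme did not move as a block. Of 20 such genes, 19 were tested and 3 were higher, 4 lower and 12 not called, with a median log2 fold change of -0.01, beside 11.8% higher and 12.5% lower among all genes tested. The zinc finger factor gene Zic2 had 68.3, 65.5 and 64.2 CPM in WT and 19.4, 26.0 and 33.7 CPM in KO, a log2 fold change of -1.32 ± 0.15 (SE), and Zic5 gave -1.04 ± 0.13. For both, every KO library stood below every WT library. Of the ETS factors downstream of FGF signalling, Etv5 gave 0.96 ± 0.10 and Etv4 -0.44 ± 0.13. Etv5 lies on chromosome 16, where the median over 471 tested genes was 0.55, and no gene of the 7 lies there or on chromosome 6, whose median was -0.40. Medians of the chromosomes that hold the 7 genes lay between -0.01 and 0.05. Grhl2, an epithelial transcription factor, gave 0.61 ± 0.10, and Sall2, a zinc finger factor, 0.37 ± 0.11. Rarg, a retinoic acid receptor, gave -0.32 ± 0.11. The calls of Etv4 and Sall2 were lost without KO replicate 1, and that of Rarg when any of 4 libraries was left out.

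The DNA methyltransferase genes Dnmt3a and Dnmt3b, both induced in formative cells, had log2 fold changes of 0.22 ± 0.10 and -0.19 ± 0.10 (SE) with edgeR adjusted p of 0.13 and 0.21. With a block for the replicate number both passed the threshold, in opposite directions, at 0.039 and 0.055. Rxrg, a retinoid X receptor gene, also passed as lower with that block (adjusted p = 0.085, against 0.14 without it). Dnmt3l, which encodes their cofactor, gave 0.09 ± 0.10 (adjusted p = 0.60). Pou3f2, a close relative of Oct6, was under 1 CPM in every library and was not tested.

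Family members of the 7 genes were few. Of 13 relatives, 8 (Otx1, Crx, Foxd1, Foxd2, Foxd4, Fgf6, Tcf21 and Scx) were under 1 CPM in every library, so that no other listed OTX or FOXD gene reached that level. Fgf4, which encodes another FGF of pluripotent cells, was lower where Fgf5 was higher: it had 272, 332 and 318 CPM in WT and 180, 247 and 257 CPM in KO. Its log2 fold change was -0.43 ± 0.12 (SE, edgeR adjusted p = 0.018, n = 3 per group), a call lost without KO replicate 1. Of the other PIM kinase genes, Pim3 was called lower at -0.39 ± 0.11 (adjusted p = 0.016, lost without KO replicate 1). Pim1 gave -0.14 ± 0.15 (adjusted p = 0.61) and was not called. Zfp148, which resembles Zfp281, had 46.3, 45.4 and 46.0 CPM in WT and 106, 92.7 and 81.3 CPM in KO, a log2 fold change of 1.03 ± 0.11. It too lies on chromosome 16. Differences between relatives were not tested as such.

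Of 15 genes for partners and receptors, 4 were higher, 1 lower and 10 not called. Among all genes tested, 11.8% were higher and 12.5% lower. The median log2 fold change of the 15 was 0.00 (-0.00195). Fgfr2, which encodes an FGF receptor, had 34.9, 31.7 and 32.2 CPM in WT and 46.7, 46.3 and 58.8 CPM in KO. Its log2 fold change was 0.62 ± 0.12 (SE, edgeR adjusted p = 0.0010, n = 3 per group), while Fgfr1, the more abundant receptor gene at 78.1 ± 9.06 CPM in WT (SD), gave -0.06 ± 0.11 (adjusted p = 0.79). Among the E proteins that pair with TCF15, Tcf3, Tcf4 and Tcf12 were not called. The ID proteins keep such factors from DNA, and Id2 was lower with 12.9 ± 1.40 CPM in WT and 6.33 ± 2.17 in KO (SD), a log2 fold change of -1.04 ± 0.22. Id4 was higher by 1.18 ± 0.39 from 10 to 20 counts in WT and 17 to 38 in KO, a call lost when any of 4 libraries was left out, and Id1 and Id3 were not called. Tet1, whose product oxidises methylated DNA, gave 0.42 ± 0.12 (adjusted p = 0.017). Sox2, the partner of OCT4, gave 0.42 ± 0.13 (adjusted p = 0.028) and lost its call without WT replicate 1 or KO replicate 3. Pou5f1, which encodes OCT4, gave -0.19 ± 0.09 with an adjusted p of 0.19, and of 0.066 with the replicate block.

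Reads near the 7 genes were examined for the same changes. The nearest tested genes beside Otx2 were Tmem260 and the pseudogene Gm48909. Tmem260, 132 kb away at lower coordinates, gave -0.04 ± 0.18 (SE, edgeR adjusted p = 0.91). Gm48909, 21.8 kb away on the other side, gave 0.55 ± 0.52 (adjusted p = 0.53). None of the other 7 tested genes that start within 500 kb of the start of Otx2 was called. The antisense transcript Otx2os1 overlaps Otx2 and had 6, 9 and 11 counts in WT and 9, 14 and 27 in KO (log2 fold change 0.94 ± 0.48, adjusted p = 0.20). None of 3 genes near Fgf5 was called, among them Cfap299 24.8 kb beyond it at 0.80 ± 0.37 (adjusted p = 0.15) and Antxr2 on the other side at 0.51 ± 0.37. Around Foxd3 the only calls were 2 lncRNAs, 25% of the tested genes in its window, against 24.3% of all genes tested. Gm12688, which overlaps Foxd3 on the opposite strand, had 45, 32 and 49 counts in WT and 77, 71 and 64 in KO (0.78 ± 0.24, adjusted p = 0.025). Gm12690, 27.5 kb before Foxd3, had 19, 22 and 32 counts in WT and 37, 77 and 45 in KO (1.14 ± 0.32, adjusted p = 0.017). The sources used here do not state whether counting used the strand, so reads of Foxd3 and Gm12688, or of Otx2 and Otx2os1, may not have been told apart. Alg6, the nearest tested gene on the other side of Foxd3, gave 0.02 ± 0.13 (adjusted p = 0.94).

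Pim2 sits in a gene-dense stretch, with Slc35a2 0.573 kb after it and Otud5 1.64 kb before it. Neither was called (0.05 ± 0.15 and -0.17 ± 0.10, SE, edgeR adjusted p = 0.88 and 0.29). Of the other 29 tested genes that start within 500 kb of its start, 24.1% were called, close to the 24.3% of all genes tested: 5 were lower (Plp2, Ccdc120, Tfe3, Pcsk1n and Eras) and 2 higher (Gm14820 and Rbm3), with a median of -0.17. They included Eras, an embryonic stem cell Ras gene, at -0.65. Srxn1, 27.8 kb before Tcf15, was higher by 0.33 ± 0.10 (adjusted p = 0.031). It was the only higher gene among the 14 tested in the Tcf15 window, where Trib3 (-0.86) and Sox12 (-0.43) were lower (21.4% called). Neither neighbour of Zfp281 was called, Kif14 at 0.02 ± 0.13 and Gm19705 at 0.01 ± 0.14. Its window of 10 genes held 1 higher gene, the nuclear receptor gene Nr5a2 (2.27), and 1 lower gene, Inava (-0.63), or 20% called. Zscan10 itself did not pass, but 36.4% of the other 22 tested genes that start within 500 kb were called, with a median of -0.43. Among all genes tested, 24.3% were called and 12.5% were lower. In the Zscan10 window 8 were lower and none higher. They were 9530082P21Rik, Cldn6, Cldn9, Flywch1, Kremen2, Mmp25, Prss32 and Tnfrsf12a, of which Mmp25, the nearest after Zscan10 at 17.3 kb, gave -0.50 ± 0.13 (adjusted p = 0.0086). Zfp13, 1.26 kb before Zscan10, gave -0.12 ± 0.13 (adjusted p = 0.60).

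**Figure D3:**
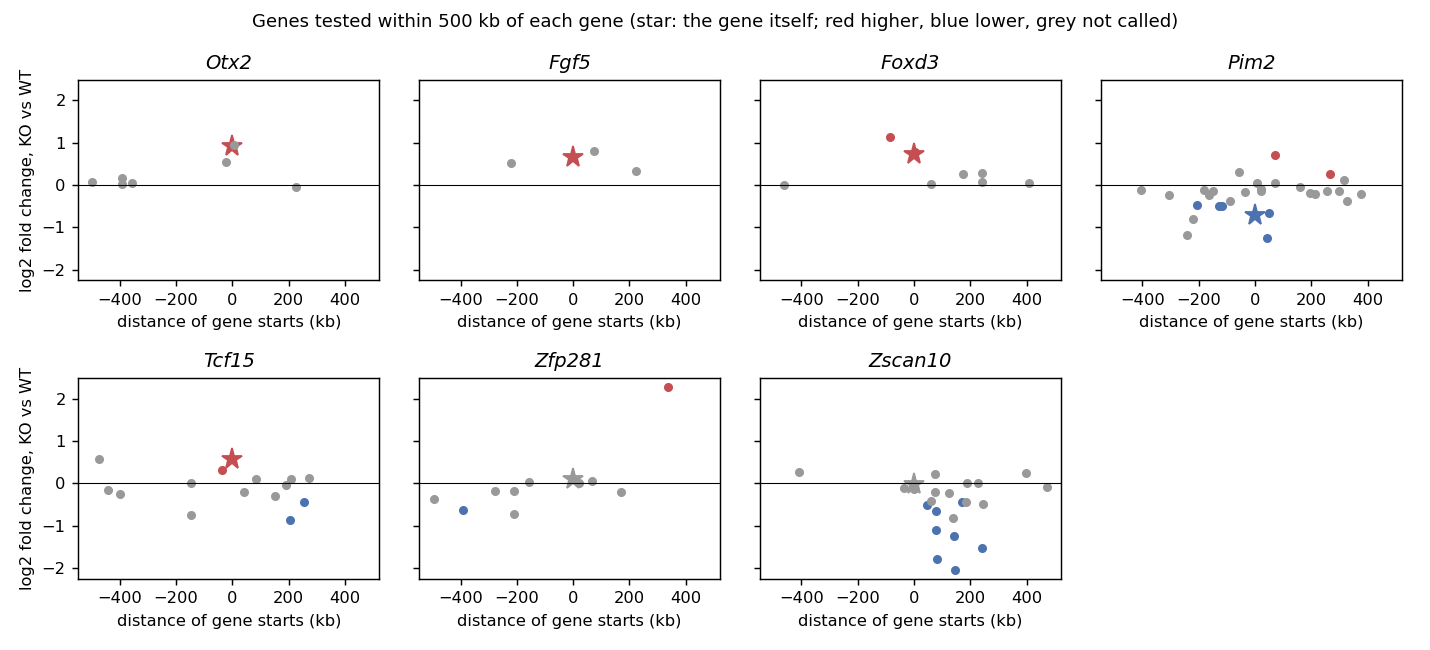
Log2 fold change of tested genes (vertical axis) against the distance of their start from that of the named gene in kb (horizontal axis), 1 panel per gene, with the gene itself as a star. No neighbour of Otx2 or Fgf5 was called, whereas 8 genes on 1 side of Zscan10 were lower.

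Profiles over the 6 libraries were compared with those of 9795 other genes above a floor on mean log2 CPM, not with all 15746 tested. Ranks hold among these genes only. The measure was the mean absolute difference of log2 CPM centred on the mean of each gene, which the rise in KO enters by construction. Closest to Otx2 were Pip4k2a (0.067), Rundc3b (0.067) and Or2y7 (0.075). Pip4k2a, a phosphoinositide kinase gene, had 5.45, 8.03 and 8.66 CPM in WT and 13.0, 12.8 and 14.3 CPM in KO, and so shared the low WT replicate 1. Fgf5 was 71st in likeness to Otx2 (0.17), Tcf15 156th and Foxd3 695th. Closest to Fgf5 were Cdk19 (0.040), a kinase of the Mediator complex with 7.76, 9.58 and 10.3 CPM in WT and 15.7, 14.9 and 14.7 CPM in KO, then Zfp597 (0.048) and Tmem45a (0.049), both on chromosome 16. Otx2 was 593rd from Fgf5. These distances are a description over WT and KO libraries together, and the libraries also differ in depth.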

How the data were processed

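RNA-seq counts of 6 libraries (3 WT and 3 KO EpiLCs, 48 h) were analysed. Reads were checked with FastQC, trimmed with Fastp and mapped with STAR in two-pass mode to GRCm39 by the authors, who deposited raw counts per Ensembl gene. The annotation release, the use of strand and the handling of multiply mapped reads are not given in the sources used here. Of 55416 identifiers, 54749 matched GENCODE M39, and the other 667 held 0.0602% of counts. Library totals were 10995505 to 14680930, and precision is given by the errors printed.

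Genes kept by filterByExpr (minimum count 10) were tested in R 4.3.3 with edgeR 4.0.16 (TMM, quasi-likelihood, genotype alone, Benjamini-Hochberg over 15746 genes, called below 0.1). Standard errors came from the F statistic. Code was tested on simulated data. DESeq2 1.42.0 and 14 further alternatives were run, among them each library left out. RefSeq promoter windows are on GRCm38.p6, another build than the counts, and their coordinates were not converted.

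Named genes were the 7, the called genes of the lists, nearest and overlapping genes, and the 3 closest profiles of Otx2 and of Fgf5. Other genes of the lists and windows are named where a count needs them, after their values were seen. Of the genes first listed, 1 is not reported here and was left out of the counts of its list. The 7 genes, the lists, the motifs and the 500 kb window were chosen with earlier results of these data known.

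The submitters' design text calls the replicates paired. Deviations of libraries with the same number correlated at 0.209, 0.251 and 0.104 over 15268 genes, which are not independent, and those with other numbers at -0.199 to -0.0125. Deviations were taken from the mean of each group and cancel within it, so the negative values follow in part by construction. The libraries of a group were not copies, with a chi-square per degree of freedom of 6.94 to 11.8.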

Additional observations from a re-analysis of the deposited data

How the results depend on the processing

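Each of 13 results was compared with 15 alternatives. They were the log2 fold changes of the 7 genes, scored on direction and side of the threshold, and counts of called genes. A count was kept when close in size to the main one, so 4 called genes in place of 5 passed. Robust estimation and the stricter threshold on the adjusted p gave the main log2 fold changes again, so direction could not change there. Counts of all, higher and lower calls are linked. By this scoring, 189 of 195 values were kept, which are not independent checks. The exceptions were Tcf15, whose log2 fold change ran from 0.41 to 0.77 when 1 library was left out and lost its call in 3 of these 6 cases, and Zscan10, whose value near 0 ran from -0.10 to 0.12 and turned positive without WT replicate 1 (0.12), KO replicate 2 (0.0013) or KO replicate 3 (0.04). The cause was not tested. Genes called numbered 2989 to 4764 and called genes among the 7 were 4 or 5. A block for the replicate number gave 0.94 for Otx2 (edgeR adjusted p = 2.7e-08), 0.66 for Fgf5, 0.70 for Foxd3, 0.57 for Tcf15 and -0.69 for Pim2 and changed no call among the 7. No scaling moved the median of all genes beyond -0.02 to 0.01. With 3 libraries a group, differences of the size seen for Zfp281 and Zscan10 are within the error.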
